A study of Rattus norvegicus with 167 samples.

Results

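Cxcl1, Cxcl2, S100a8 and S100a9 were followed through the weeks after complete transection of the rat spinal cord. They were taken by name, each through the single-symbol probe set with the highest mean in the deposited table. That gave 4 of the 14218 genes measured, each with 1 probe set on the array: 1387316_at for Cxcl1, 1368760_at for Cxcl2, 1368494_at for S100a8 and 1387125_at for S100a9.

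Cxcl1 and Cxcl2 are secreted chemokines of the CXC family that act on the receptor Cxcr2 and draw neutrophils out of the blood. Damaged tissue makes them through NF-kappaB signalling after interleukin-1, tumour necrosis factor or Toll-like receptor stimulation, and astrocytes, endothelium and macrophages are known sources in the cord. S100a8 and S100a9 are small calcium-binding proteins that pair to form calprotectin, fill the neutrophil cytosol, and act as alarmins on Tlr4 and Ager once released. After cord injury neutrophils are known to enter early, with monocytes and macrophages following.

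The animals were adult female Wistar rats whose thoracic cord was cut through with removal of 5 mm of tissue, and every injured group carries this lesion. Into the gap went a chitosan tube carrying the growth factor neurotrophin-3 (NT3) or a chitosan tube without it (ET), or it was left unfilled (lesion control, LC). Segments of 5 mm were taken from the lesion site and from the cord just rostral and just caudal to it on days 1, 3, 10, 20, 30, 60 and 90, and uninjured cord served as the baseline. The lesion site was sampled from day 3, and with the empty tube on day 3 only. The rostral cord had 21 arrays of NT3, 20 of ET and 21 of LC, the lesion site 18, 3 and 18, the caudal cord 21, 21 and 21, and uninjured cord 3. Of the 56 groups, 55 held 3 arrays and 1, rostral ET on day 10, held 2. The labels do not say whether arrays of a group came from separate animals or pools, so the p-values rest on the spread among arrays, which may be technical.

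Values are Affymetrix signals on the log2 scale after RMA, and differences are differences of log2 values. Array medians ran between 7.1 and 7.25, and the number of arrays limits the precision. Snap25, a synaptic protein of neurons, was between 12.80 and 13.81 in rostral cord, between 7.99 and 12.55 at the lesion site, between 12.95 and 13.85 in caudal cord and between 13.75 and 13.90 in uninjured cord. Single arrays stood apart in the members: rostral ET day 3 replicate 2 in all 4, rostral ET day 90 replicate 2, lesion site NT3 day 60 replicate 2 and rostral NT3 day 20 replicate 3 in S100a8 and S100a9, and lesion site LC day 20 replicate 5 in Cxcl1. A class I histocompatibility gene, RT1-CE10, also split the arrays around a log2 value of 9 in a way that differed between treatments on some days. On days 1 and 3 it was above 9 in 0 of 3 NT3 arrays of every group, while 3 of 3 rostral and 3 of 3 caudal LC arrays were above it on day 1. It was above 9 in 0 of 3 uninjured arrays. Its part in differences of LC from uninjured cord, or between LC days, was not tested. The 3′ minus 5′ signal of the beta-actin control averaged 1.72 in uninjured cord and between 0.76 and 1.5 in the other groups. Values without the arrays that stood apart, or on the days when RT1-CE10 was on the same side in both groups, stand beside the results where they could be had.

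The sequences just upstream of the genes are shown because NF-kappaB is a known regulator of the chemokines. Promoters of 3 of the 4 members were matched in RefSeq's table for assembly GRCr8, all on the minus strand, S100a8 being the other member. Cxcl1 and Cxcl2 are close neighbours on chromosome 14, and S100a8 and S100a9 on chromosome 2. Each line gives the 250 bases before the gene's start, 5′ to 3′, with motif matches in capitals.
Cxcl1, chr14:17479322-17479571: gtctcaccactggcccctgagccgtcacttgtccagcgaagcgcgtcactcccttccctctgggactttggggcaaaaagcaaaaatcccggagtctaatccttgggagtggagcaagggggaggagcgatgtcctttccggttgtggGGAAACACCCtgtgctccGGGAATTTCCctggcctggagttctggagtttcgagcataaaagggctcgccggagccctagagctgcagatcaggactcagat
Cxcl2, chr14:17467256-17467505: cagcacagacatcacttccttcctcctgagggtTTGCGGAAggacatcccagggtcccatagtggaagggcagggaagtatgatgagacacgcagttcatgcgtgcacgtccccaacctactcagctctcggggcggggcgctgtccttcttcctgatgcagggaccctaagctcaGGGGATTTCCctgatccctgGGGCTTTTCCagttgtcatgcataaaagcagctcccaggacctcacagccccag
S100a9, chr2:178490623-178490872: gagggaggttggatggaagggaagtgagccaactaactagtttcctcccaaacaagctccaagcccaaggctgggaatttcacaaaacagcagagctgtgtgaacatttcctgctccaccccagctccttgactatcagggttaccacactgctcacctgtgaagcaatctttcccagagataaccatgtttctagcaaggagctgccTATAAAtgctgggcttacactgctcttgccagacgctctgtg
The NF-kappaB-type motif, GGG, any 2 bases and then TTTCC, searched like the others on both strands, occurred at positions -102 to -93 (on the opposite strand) and -84 to -75 of Cxcl1. In Cxcl2 it occurred at -74 to -65 and at -54 to -45. It was found in 1.3% of the 33469 promoters in the table and had no match in the S100a9 window. A C/EBP-type match, TTGCNNAA, lay at -217 to -210 of Cxcl2, as in 9.22% of promoters, and a TATA-type match, TATAAA, at -42 to -37 of S100a9, as in 12.9%. The AP-1-type motif TGANTCA, present in 6.34% of promoters, was in none of the 3 windows, and none of the matches overlapped. A match describes letters in the window and not binding.

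In uninjured cord the chemokines were at the bottom of their ranges. Cxcl1 read 5.23, 5.24 and 5.08 in the 3 arrays, and Cxcl2 read 4.78, 4.47 and 4.53. Both lay below the 40th percentile of all genes on those arrays, a percentile that was between 6.49 and 6.60. A difference of either chemokine from uninjured cord therefore depends on values near the bottom of the scale, and no fold is given for it. The alarmins varied more between uninjured arrays. S100a8 read 7.49, 6.63 and 8.22 there, and S100a9 read 8.75, 7.31 and 9.23. Replicate 2 was the lowest uninjured array for both alarmins. All 4 members passed the filter on low values, which asks for values above the 40th percentile in at least 3 arrays. Cxcl1 was above that percentile in 145 arrays, S100a8 in 157 and S100a9 in 166, but Cxcl2 in only 46, so Cxcl2 entered through the groups where it was high.

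Transection without a tube was followed on day 1 by high values of all 4 genes on both sides of the lesion. In rostral cord Cxcl1 read 11.11, 11.33 and 11.74 on LC arrays of day 1, a difference of 6.21 ± 0.46 (SE) from uninjured cord (adjusted p = 3.77e-16, limma). Cxcl2 read 10.67, 11.36 and 11.89 there, 6.71 ± 0.62 above uninjured cord (adjusted p = 4.41e-13). None of these arrays overlapped the uninjured ones. S100a8 read 11.39, 12.18 and 12.60 in the same arrays, 4.61 ± 0.81 above uninjured cord or 24.4-fold (adjusted p = 3.11e-06). S100a9 read 12.40, 13.30 and 13.82, 4.74 ± 0.81 above uninjured cord or 26.8-fold (adjusted p = 1.87e-06). All 4 genes were higher, where 31.5% of the 12041 genes tested were called higher in this comparison. RT1-CE10 was above 9 in 3 of 3 rostral and 3 of 3 caudal LC arrays of day 1. It was above 9 in 0 of 3 uninjured arrays, and its part in these differences was not tested. In bulk tissue more cells of a type and more RNA per cell cannot be told apart.

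Caudal cord gave the same directions on day 1. Cxcl1 read 10.93, 10.53 and 10.91 in LC arrays, 5.60 ± 0.52 above uninjured cord (adjusted p = 8.08e-13, limma), and Cxcl2 read 9.82, 9.27 and 9.95, 5.08 ± 0.26 above it (adjusted p = 1.94e-21). The alarmins rose as well, with no array overlapping uninjured cord. S100a8 read 11.34, 10.98 and 11.42, a difference of 3.80 ± 0.74 (adjusted p = 2.33e-05), and S100a9 read 12.49, 11.68 and 12.58, a difference of 3.82 ± 0.73 (adjusted p = 1.5e-05). The 4 calls stand beside 29.2% of genes called higher. Averaged over days 1 and 3, no member was called between rostral and caudal LC cord, where 0.731% of genes were. The average joins days that differed. On day 1 all rostral LC arrays of Cxcl1 (mean 11.39) and Cxcl2 (11.30) were above all caudal ones (10.79 and 9.68). On day 3 the rostral means were the lower ones, 9.49 against 9.84 for Cxcl1 and 7.24 against 8.55 for Cxcl2, with arrays overlapping. The sides were not tested on single days. The rostral minus caudal difference was 0.13 (95% interval -0.55 to 0.81) for Cxcl1, 0.15 (-0.52 to 0.83) for Cxcl2, 0.24 (-0.90 to 1.38) for S100a8 and 0.25 (-0.86 to 1.35) for S100a9, with adjusted p between 0.842 and 0.873.

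**Figure D1:**
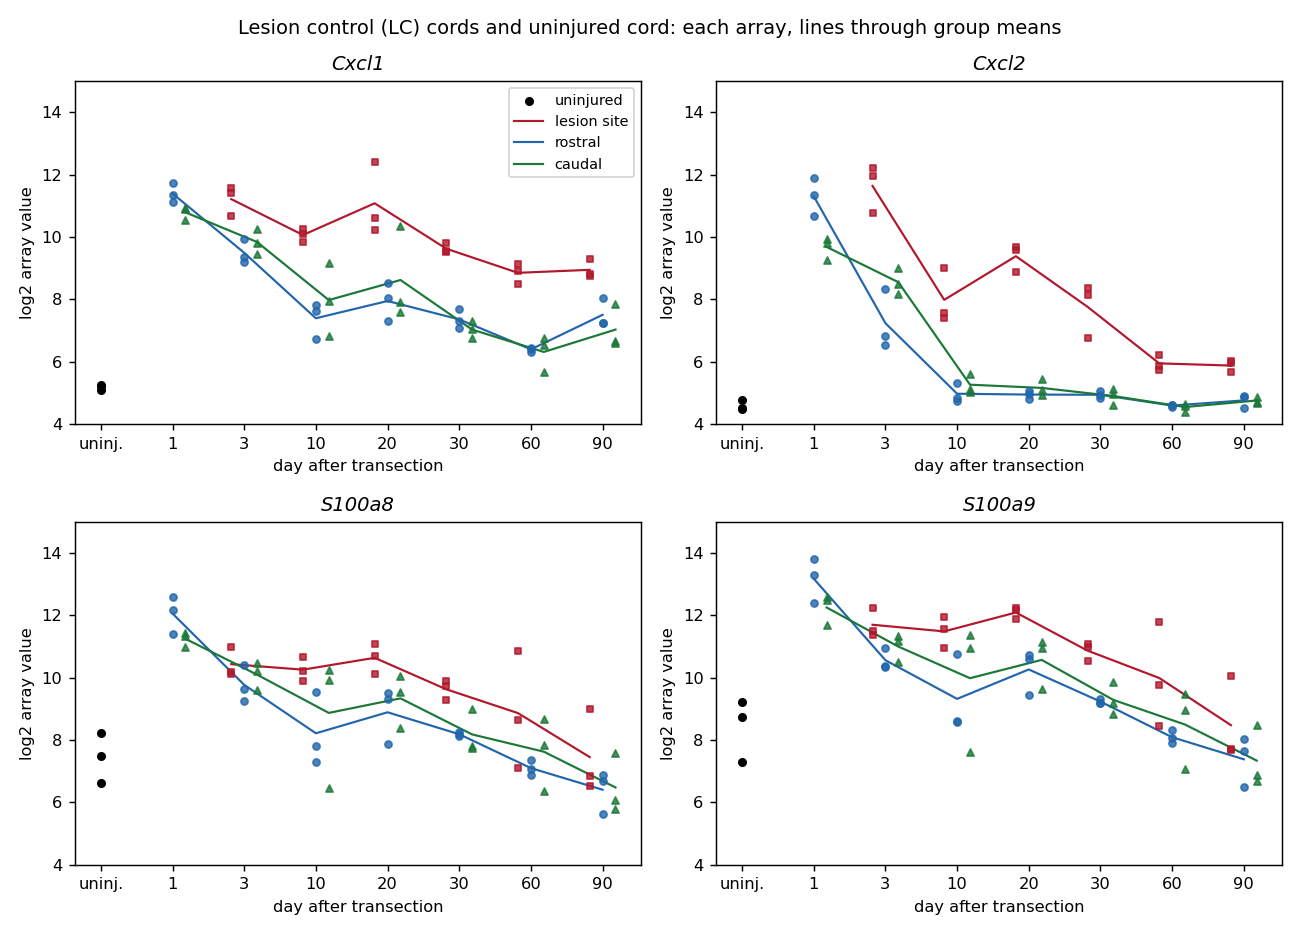
Each point is 1 lesion control array, with log2 signal against day after transection for the 3 segments and the uninjured arrays at the left, 1 panel per gene. The chemokines fall toward the uninjured level in rostral and caudal cord by days 10 to 30 and stay higher at the lesion site, while S100a8 and S100a9 run between 5.64 and 11.77 on days 60 and 90.

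By day 3 the members were lower than on day 1 in rostral LC cord. Cxcl2 read 8.33, 6.55 and 6.83 on day 3, a day 3 minus day 1 difference of -4.07 ± 0.62 (adjusted p = 1.05e-06, limma). Cxcl1 read 9.92, 9.20 and 9.36, a difference of -1.90 ± 0.46 (adjusted p = 0.00126). No day 3 array of either chemokine reached the day 1 arrays. S100a8 read 10.42, 9.65 and 9.24 on day 3, a difference of -2.29 ± 0.81 (adjusted p = 0.0294), and S100a9 read 10.94, 10.39 and 10.35, a difference of -2.61 ± 0.81 (adjusted p = 0.0127). These 4 calls stand beside 11.7% of genes called lower. RT1-CE10 was above 9 in 3 of 3 rostral LC arrays on day 1 and 1 of 3 on day 3, and its part was not tested. The S100a8 call was lost on leaving out rostral LC day 1 replicate 2 (-2.22, adjusted p = 0.0755) or replicate 3 (-2.01, 0.1), or day 3 replicate 2 (-2.23, 0.0645) or replicate 3 (-2.02, 0.108). That of S100a9 was lost without day 1 replicate 3 (-2.29, adjusted p = 0.0585). In caudal cord Cxcl2 alone was called lower, with day 3 values of 8.48, 8.18 and 8.99 and a difference of -1.13 ± 0.26 (adjusted p = 0.000965), where 12.1% of genes were. The other members differed there by -0.95 (Cxcl1), -1.15 (S100a8) and -1.26 (S100a9), with adjusted p between 0.176 and 0.263.

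Against uninjured cord the members were still called higher on day 3 on both sides. The rostral differences were 4.31 ± 0.46 for Cxcl1 (adjusted p = 1.69e-11, limma), 2.64 ± 0.62 for Cxcl2 (0.000219), 2.32 ± 0.81 for S100a8 (0.0113) and 2.13 ± 0.81 for S100a9 (0.0201), beside 35.3% of genes. The rostral alarmin calls were lost without uninjured replicate 2, at 1.91 (adjusted p = 0.0646) for S100a8 and 1.57 (0.128) for S100a9, and without rostral LC day 3 replicate 1, at 2.00 (0.0554) and 1.94 (0.0644). The caudal differences were 4.65 ± 0.52 for Cxcl1 (9.6e-11), 3.95 ± 0.26 for Cxcl2 (8.36e-18), 2.65 ± 0.74 for S100a8 (0.00179) and 2.56 ± 0.73 for S100a9 (0.00199), beside 33.8%.

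At the lesion site itself the first sampled day, day 3, had all 4 genes higher than uninjured cord. Cxcl2 read 11.95, 10.76 and 12.20 in LC arrays, 7.04 ± 0.42 above uninjured cord, and Cxcl1 read 11.40, 10.68 and 11.56, 6.03 ± 0.38 above it (adjusted p = 2.39e-15, limma). S100a8 read 10.99, 10.18 and 10.13, a difference of 2.99 ± 0.79 (adjusted p = 0.00113), and S100a9 read 12.22, 11.38 and 11.49, a difference of 3.26 ± 0.75 (adjusted p = 0.000246). All arrays of all 4 genes lay above the uninjured ones, where 40.8% of genes were called higher. The lesion site differed from the mean of its neighbouring cord on that day in the chemokines, by 1.55 ± 0.42 for Cxcl1 (adjusted p = 0.000891) and by 3.74 ± 0.42 for Cxcl2 (8.33e-14). For the alarmins the same difference was 0.50 for S100a8 (adjusted p = 0.545) and 0.92 for S100a9 (0.238), and 32% of genes were called higher.

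Between days 10 and 30 all 4 genes stayed high at the lesion site without a tube. Cxcl2 read 7.55, 9.0 and 7.40 on day 10, 9.58, 8.88 and 9.69 on day 20 and 8.36, 8.15 and 6.77 on day 30. Its mean over these days was 3.78 ± 0.34 above uninjured cord (adjusted p = 8.19e-12, limma). No array of the 9 fell to the uninjured level, and day 20 held the highest of them. Cxcl1 read 10.26, 10.08 and 9.85 on day 10, 10.61, 10.23 and 12.40 on day 20 and 9.55, 9.81 and 9.51 on day 30, 5.07 ± 0.31 above uninjured cord (adjusted p = 6.32e-16). The value of 12.40 belongs to replicate 5 of day 20, and it was above every other array of that period. Without it the difference was 4.85 (adjusted p = 2.61e-17). S100a8 read 9.90, 10.66 and 10.21, then 10.70, 11.08 and 10.13, then 9.89, 9.27 and 9.72 on days 10, 20 and 30. S100a9 read 10.94, 11.96 and 11.55, then 12.17, 12.23 and 11.87, then 11.09, 10.52 and 10.99. Both alarmins thus lay above all uninjured arrays in 9 of 9 LC arrays, by 2.72 ± 0.65 (6.60-fold, adjusted p = 0.000318) for S100a8 and by 3.05 ± 0.61 (8.27-fold, adjusted p = 3.99e-05) for S100a9. The 4 calls stand beside 41.9% of genes called higher.

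Chemokine values in the neighbouring cord were lower than on day 3 in the same weeks. Rostral Cxcl2 ran between 4.75 and 5.32 with a median of 4.94, 0.36 above uninjured cord (adjusted p = 0.561, limma), and all its arrays were below the 40th percentile. Rostral Cxcl1 ran between 6.73 and 8.51 with a median of 7.64, above uninjured cord in 9 of 9 arrays (2.38 ± 0.37, adjusted p = 3.23e-07), and was the only member called there, beside 29.1% of genes. S100a8 ran between 7.31 and 9.54 (median 8.18, adjusted p = 0.202) and S100a9 between 8.58 and 10.77 (median 9.30, adjusted p = 0.125), both overlapping the uninjured arrays. In caudal cord Cxcl1 ran between 6.76 and 10.35 (median 7.58) and was 2.69 ± 0.42 above uninjured cord (adjusted p = 3.63e-07). Caudal Cxcl2 ran between 4.61 and 5.62, 0.51 ± 0.22 above it (adjusted p = 0.0371), and S100a9 between 7.63 and 11.38, 1.51 ± 0.59 above it (adjusted p = 0.0244). All 9 of these Cxcl2 arrays were at or below the 40th percentile, so that call rests on low values. Caudal S100a8 ran between 6.46 and 10.24, a difference of 1.35 ± 0.61 (adjusted p = 0.0501), so 3 members were called beside 29.2% of genes. The caudal Cxcl2 call was lost on leaving out caudal LC day 10 replicate 3 (0.45, adjusted p = 0.0708), day 20 replicate 1 (0.46, 0.0648), day 30 replicate 2 (0.47, 0.0616), uninjured replicate 2 (0.45, 0.136) or uninjured replicate 3 (0.48, 0.107). The caudal S100a9 call was lost without uninjured replicate 2 (0.95, adjusted p = 0.246) or caudal LC day 10 replicate 3 (1.28, 0.0563), and S100a8 was called without caudal LC day 10 replicate 1 (1.75, 0.00548).

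All 4 members were higher at the lesion site than in its neighbours in this period, beside 45.5% of all genes. The differences from the mean of rostral and caudal LC cord were 2.54 ± 0.24 for Cxcl1 (adjusted p = 9.82e-18, limma), or 2.31 (4.27e-15) without LC day 20 replicate 5, 3.34 ± 0.24 for Cxcl2 (1.33e-25), 1.56 ± 0.41 for S100a8 (0.000302) and 1.70 ± 0.39 for S100a9 (5.36e-05). Between day 3 and days 10 to 30 the lesion site values changed for Cxcl2, by -3.26 ± 0.34 (adjusted p = 3.12e-09), and Cxcl1, by -0.96 ± 0.31 (0.0134), or -1.18 (0.000383) without day 20 replicate 5, while S100a8 differed by -0.26 (0.775) and S100a9 by -0.22 (0.804). There 25.9% of genes were called lower, and the Cxcl1 call was lost without lesion site LC day 3 replicate 1 (-0.87, adjusted p = 0.0694) or replicate 3 (-0.79, 0.099). The same step in rostral cord was -1.93 for Cxcl1 (adjusted p = 3.99e-05), -2.28 for Cxcl2 (0.000253), -1.34 for S100a8 (0.0992) and -0.96 for S100a9 (0.248), beside 26%. In caudal cord it was -1.96 for Cxcl1 (0.000236), -3.44 for Cxcl2 (1.09e-17), -1.30 for S100a8 (0.0847) and -1.05 for S100a9 (0.16), beside 24.5%.

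By days 60 to 90 Cxcl1 was called higher than uninjured cord in all 3 segments without a tube. At the lesion site it read 8.92, 9.14 and 8.49 on day 60 and 8.74, 9.30 and 8.80 on day 90, 3.72 ± 0.33 above uninjured cord (adjusted p = 7.41e-12, limma). Cxcl2 read 5.75, 6.22 and 5.87 on day 60 and 5.67, 5.95 and 6.01 on day 90, 1.31 ± 0.36 above it (adjusted p = 0.00158). All 6 arrays of both chemokines were above the uninjured ones, and these 2 calls stand beside 40.4% of genes. All 6 Cxcl2 arrays were at or below the 40th percentile, like the uninjured ones, so its call rests on low values. S100a8 read 8.63, 10.85 and 7.11 on day 60 and 6.52, 8.98 and 6.86 on day 90, and S100a9 read 9.75, 11.77 and 8.45 and then 7.69, 10.04 and 7.70. Replicate 2 was the highest alarmin array on both days, and 3 of 6 arrays were above all uninjured ones. The alarmins differed from uninjured cord by 0.71 (adjusted p = 0.351) and 0.80 (0.264). In rostral cord Cxcl1 was 1.77 ± 0.39 above uninjured cord (adjusted p = 0.000176), the 1 member called beside 24.9% of genes, and in caudal cord 1.49 ± 0.45 (0.00438), again the 1 member called, beside 25.2%. S100a8 and S100a9 there had negative differences that did not pass, -0.70 (adjusted p = 0.421) and -0.70 (0.422) rostrally and -0.39 (0.623) and -0.51 (0.503) caudally.

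The late step, days 60 to 90 minus days 10 to 30, was a fall of all 4 genes at the lesion site, beside 21.7% of genes called lower. It was -1.35 for Cxcl1 (adjusted p = 3.68e-05, limma), or -1.13 (3.21e-05) without day 20 replicate 5, -2.46 for Cxcl2 (7.28e-09), -2.01 ± 0.51 for S100a8 (0.00175) and -2.25 ± 0.48 for S100a9 (0.000323). In rostral cord the alarmins alone were called, S100a8 by -1.68 ± 0.52 (0.0239) and S100a9 by -1.87 ± 0.53 (0.0118), beside 8.27%, with Cxcl1 at -0.61 (0.16) and Cxcl2 at -0.28 (0.696). The rostral S100a8 call was lost without LC day 10 replicate 3 (-1.46, adjusted p = 0.0552), day 60 replicate 3 (-1.62, 0.0589) or day 90 replicate 1 (-1.49, 0.0814), and that of S100a9 without day 90 replicate 1 (-1.64, 0.0505). In caudal cord Cxcl1 fell by 1.2 ± 0.34 (0.00912), S100a8 by 1.74 ± 0.48 (0.00827) and S100a9 by 2.03 ± 0.47 (0.00181), beside 11.8%, with Cxcl2 at -0.46 (0.0502). Caudal S100a8 was not called without LC day 60 replicate 3 (-1.42, adjusted p = 0.0546). The lesion site still exceeded its neighbours on days 60 to 90, by 2.09 ± 0.30 for Cxcl1 (4.82e-10), 1.25 ± 0.29 for Cxcl2 (8.3e-05), 1.26 ± 0.50 for S100a8 (0.0178) and 1.41 ± 0.48 for S100a9 (0.00633), beside 43.2%. Cxcl2 was at or below the 40th percentile in all LC arrays of every segment on these days. Both alarmin calls were lost without lesion site LC day 60 replicate 2, at 0.76 (adjusted p = 0.182) and 0.96 (0.0812), or day 90 replicate 2, at 0.87 (0.128) and 1.02 (0.0672).

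With the NT3 tube, the chemokines at the lesion site were lower than in LC on days 10 to 30, and the alarmins were not called lower. LC had no tube, and the lesion site had no ET arrays after day 3. From day 10 on, NT3 and the tube itself therefore cannot be told apart there. Cxcl2 read 8.66, 8.62 and 10.58 on day 3 in NT3 arrays, against 11.95, 10.76 and 12.20 in LC arrays, a NT3 minus LC difference of -2.35 ± 0.42 (adjusted p = 0.00016, limma). It read 5.01, 4.61 and 5.17 on day 10, 4.85, 5.77 and 4.95 on day 20 and 5.25, 5.24 and 5.38 on day 30 with NT3. Every NT3 array of Cxcl2 was below every LC array of the same day on each of the 6 days sampled. Over days 10 to 30 Cxcl2 averaged 5.14 with NT3 and 8.37 in LC, a difference of -3.24 ± 0.24 (adjusted p = 2.45e-12), and the NT3 arrays ran between 4.61 and 5.77 around a median of 5.17. All 9 of them were at or below the 40th percentile, so the size of the difference depends on low values. The difference by day was -2.35 on day 3, -3.05 on day 10, -4.19 on day 20, -2.47 on day 30, -0.55 on day 60 and -0.73 on day 90. Cxcl2 changed in this difference with the day (F-test over days, adjusted p = 5.96e-05), as did 50.6% of genes. On days 60 to 90 all 6 NT3 and all 6 LC arrays were at or below the 40th percentile. A difference would be hard to measure then, so this test cannot tell a changing NT3 difference from low values.

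Cxcl1 moved the same way. It read 9.77, 9.86 and 11.29 on day 3, 8.66, 8.03 and 8.46 on day 10, 9.16, 9.85 and 9.65 on day 20 and 9.08, 8.52 and 8.16 on day 30 in NT3 arrays. On days 10, 20 and 30 each of these was below every LC array of its day. Cxcl1 averaged 8.84 with NT3 and 10.25 in LC over days 10 to 30, a difference of -1.41 ± 0.22 (adjusted p = 5.71e-06, limma), and these NT3 arrays still ran between 8.03 and 9.85, above all uninjured arrays. Without LC day 20 replicate 5 the difference was -1.19 (5.24e-06). RT1-CE10 was alike in both groups on days 10 and 30, and over those days alone Cxcl1 differed by -1.36 (adjusted p = 0.000391) and Cxcl2 by -2.76 (2.06e-08). With Cxcl2 this made 2 members lower, beside 17.5% of genes called lower. On day 3 Cxcl2 was the 1 member called, beside 9.82% of genes, with Cxcl1 at -0.91 ± 0.38 (adjusted p = 0.0958), or -1.40 (0.0142) without NT3 day 3 replicate 3. RT1-CE10 was above 9 in 0 of 3 NT3 arrays and 2 of 3 LC arrays on that day, and its part was not tested.

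Neither alarmin was called at the lesion site on day 3 or days 10 to 30. S100a8 read 10.62, 11.01 and 10.77 on day 3, 10.79, 11.22 and 11.46 on day 10, 10.21, 12.62 and 12.02 on day 20 and 12.01, 8.36 and 9.75 on day 30 with NT3. S100a9 read 11.81, 12.19 and 12.06, then 11.99, 11.95 and 12.42, then 11.33, 13.61 and 13.10, then 12.91, 9.41 and 10.96 on the same days. Most of these arrays were mixed with or above the LC arrays, with the spread widest on day 30. Over days 10 to 30 S100a8 averaged 10.94 with NT3 and 10.17 in LC, a difference of 0.77 (95% interval -0.16 to 1.70, adjusted p = 0.196, limma). S100a9 averaged 11.97 with NT3 and 11.48 in LC, a difference of 0.49 (-0.40 to 1.37, adjusted p = 0.409). On days 10 and 30 alone these were 0.66 (0.437) and 0.43 (0.608). On day 3 the differences were 0.36 (adjusted p = 0.799) for S100a8 and 0.32 (0.815) for S100a9.

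**Figure D2:**
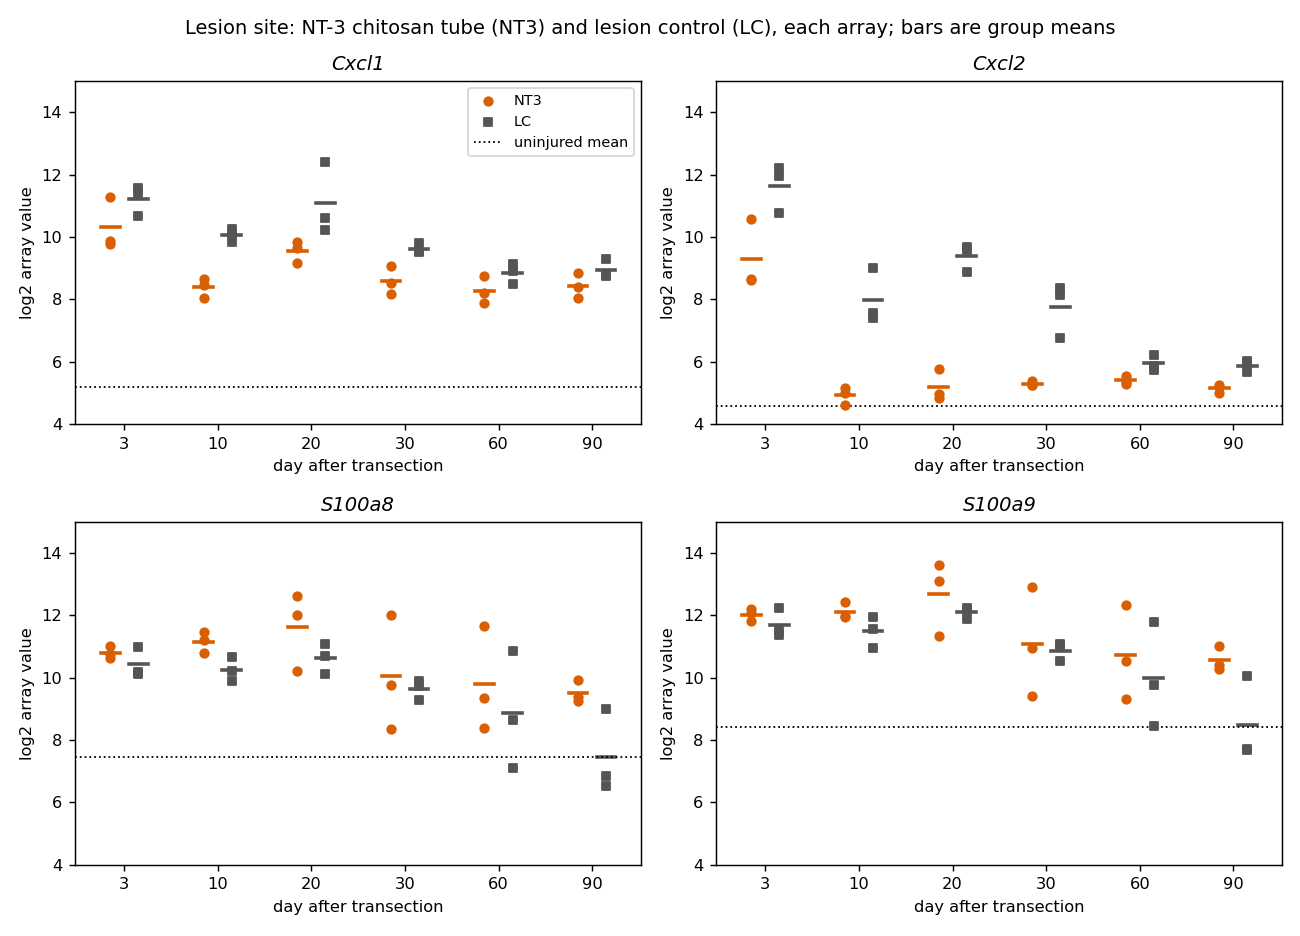
Lesion site arrays with NT3 and in the lesion control, log2 signal against day, 1 panel per gene with 1 point per array. For Cxcl2 the NT3 points lie below the control points on each of the 6 days, while for S100a8 the NT3 points lie above the control points on days 10 and 90, and for S100a9 on day 90.

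On days 60 to 90 the alarmins were higher at the lesion site with NT3. S100a8 read 8.38, 11.66 and 9.36 on day 60 and 9.93, 9.38 and 9.24 on day 90 with NT3, averaging 9.66 against 8.16 in LC (difference 1.5 ± 0.56, adjusted p = 0.034, limma). S100a9 read 9.32, 12.33 and 10.55 and then 11, 10.42 and 10.29, averaging 10.65 against 9.23 in LC (1.42 ± 0.53, adjusted p = 0.0347). The groups overlapped on day 60 and were apart on day 90, and 14.9% of genes were called higher. Both calls were lost on leaving out LC day 60 replicate 1 or 3, LC day 90 replicate 1 or 3, or NT3 day 60 replicate 2. Without these arrays in turn the difference ran between 1.03 and 1.44 for S100a8 (adjusted p between 0.0642 and 0.149) and between 1.02 and 1.36 for S100a9 (0.0659 to 0.142). On day 60 alone, when RT1-CE10 was below 9 in every array of both groups, it was 0.94 (adjusted p = 0.385) for S100a8 and 0.74 (0.476) for S100a9. On day 90 RT1-CE10 was above 9 in 0 of 3 NT3 arrays and 3 of 3 LC arrays, and its part in the alarmin difference was not tested. Cxcl1 differed by -0.54 (adjusted p = 0.112) and Cxcl2 by -0.64 (0.0862) in this period.

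Markers of other cells moved with the treatment at the lesion site. Over days 10 to 30, 4 of 5 erythrocyte genes were called higher with NT3 (median 1.08, against 0.01 for all genes), among them the globin Hbb (0.35, adjusted p = 0.0078, limma) and the haem synthesis enzyme Alas2 (1.08, 0.000965). All 6 skeletal muscle genes were higher (median 2.44), with the muscle actin Acta1 at 4.59, where 19.1% of all genes were called higher. Per array, the mean of the erythrocyte genes relative to uninjured cord was between 0.75 and 2.10 with NT3 on day 20 and between -0.74 and 0.13 in LC. On days 60 to 90, 2 of 5 erythrocyte genes were higher with NT3 (median 0.74, all genes -0.06), Hbb at 0.54 (adjusted p = 0.00131) and Alas2 at 1.05 (0.00786), and 6 of 6 muscle genes (median 2.25). In that period 14.9% of all genes were called higher. Across all arrays the deviation of S100a8 from its group mean correlated with that of the erythrocyte mean at r = 0.51 and that of S100a9 at 0.53, against 0.04 for Cxcl1 and 0.03 for Cxcl2. Erythrocyte genes were not their closest list. With the mean of 13 other neutrophil genes, r was 0.79 for S100a8, 0.81 for S100a9 and 0.46 for each chemokine. With B lymphocyte precursor genes it was 0.40 for S100a8 and 0.42 for S100a9. Values of 1 array share its quality and tissue content, and the part of blood or muscle in the member differences was not tested.

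Other genes on the neutrophil list were mostly, but not all, lower with NT3 at the lesion site over days 10 to 30. Neutrophil numbers were not measured. The measured genes of the list include Cybb, Itgam, Itgb2, Ncf1, Ncf4, Hp and Slpi. Whether its genes are confined to neutrophils in this tissue was not tested, so its counts do not stand for that cell type alone. Of 13 neutrophil genes tested, 9 were lower and 2 higher with NT3 (median -1.02), where 17.5% of all genes were lower and 19.1% higher. The receptor for granulocyte colony-stimulating factor, Csf3r, was lower by -1.02, the gelatinase Mmp9 by -1.46 and the siderophore-binding Lcn2 by -1.68, both proteins of neutrophil granules. The 2 higher genes were the collagenase Mmp8 (0.78, adjusted p = 0.00361, limma) and the antimicrobial peptide Camp (1.16, 0.0377). Pglyrp1, a peptidoglycan-binding granule protein, differed by 0.47 (adjusted p = 0.0699). Per array, the mean of the neutrophil genes above uninjured cord was between 2.26 and 2.80 with NT3 on day 20 and between 3.62 and 3.71 in LC.

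Inducing cytokines, feedback genes and monocyte chemokines were lower along with Cxcl1 and Cxcl2 in that comparison, while the other CXC genes were mixed. Cxcl6, a chemokine of the same family, differed by -3.02 ± 0.16 between NT3 and LC (adjusted p = 9.34e-16, limma), Cxcl3 by -1.42 ± 0.21 (3.5e-06) and the receptor Cxcr2 by -0.61. Ppbp, a chemokine of platelets, went the other way at 0.68 ± 0.17 (0.00215). Of the 7 CXC chemokines and receptors outside the members, 3 were lower and 2 higher (median 0.17). All 11 inducing cytokines and feedback genes were lower (median -0.83), with the pyrogenic cytokine Il1b at -2.06 ± 0.17 (2.31e-11), Il6 at -2.07 ± 0.24 (3.95e-08) and the interleukin-1 antagonist Il1rn at -3.13 ± 0.20 (8.94e-14). All 6 monocyte chemokines were lower as well (median -2.01), Ccl2 at -1.98 and Ccl3 at -2.05. Of 7 receptors and partners of S100A8/A9, 6 were lower (median -0.43), among them the endotoxin co-receptor Cd14 at -1.63 and Tlr4 at -0.43, while Ager differed by 0.06. Of 9 other S100 genes 2 were higher and none lower, near the 19.1% of all genes called higher. The other counts of this paragraph stand beside 17.5% of all genes called lower.

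Beside the lesion, NT3 arrays had lower chemokine values on days 1 and 3. In rostral cord Cxcl1 read 11.74, 9.62 and 9.95 on day 1 and 7.63, 7.92 and 7.90 on day 3 with NT3, averaging 9.13 against 10.44 in LC (difference -1.32 ± 0.32, adjusted p = 0.00156, limma). Cxcl2 read 10.71, 8.42 and 8.60 and then 5.78, 5.69 and 6.03, averaging 7.54 against 9.27 in LC (-1.73 ± 0.44, adjusted p = 0.00201). On day 3 all NT3 arrays of both chemokines were below all LC arrays, and on day 1 replicate 1 of NT3 was among the LC values. S100a8 read 11.41, 10.90 and 10.55 on day 1 and 7.12, 9.47 and 9.34 on day 3 with NT3, a difference of -1.12 (adjusted p = 0.131) from LC. S100a9 read 12.02, 11.31 and 10.70 and then 8.42, 10.58 and 10.44, a difference of -1.29 (0.0781). The 2 members called lower stand beside 19.2% of genes. Both calls held without any 1 array, but not without all arrays of replicate 3, at -1.16 (adjusted p = 0.094) for Cxcl1 and -1.58 (0.133) for Cxcl2.

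Caudal cord showed it with fewer other genes called. Cxcl2 read 8.79, 7.63 and 8.60 on day 1 and 5.66, 5.38 and 5.88 on day 3 with NT3, averaging 6.99 against 9.12 in LC (difference -2.13 ± 0.19, adjusted p = 1.96e-11, limma). Cxcl1 read 10.14, 9.73 and 10.34 and then 7.88, 7.67 and 8.35, averaging 9.02 against 10.31 in LC (-1.29 ± 0.37, adjusted p = 0.0247). Every NT3 array of both chemokines was below every LC array of its day, and 3.75% of genes were called lower. The same held for S100a9 on both days and for S100a8 on day 3. The Cxcl1 call was lost without any 1 of 6 arrays (NT3 day 1 replicate 2, NT3 day 3 replicate 1 or 2, LC day 1 replicate 1 or 3, LC day 3 replicate 3), with adjusted p between 0.0528 and 0.0752. S100a8 read 10.98, 11.17 and 11 on day 1 and 8.65, 8.79 and 9.28 on day 3, a difference of -0.69 (adjusted p = 0.477) from LC. S100a9 read 11.54, 11.32 and 11.64 and then 9.70, 9.78 and 10.34, a difference of -0.90 (0.317). In a fit of the compared groups alone, all 4 members were called, with S100a8 at adjusted p = 0.0189 and S100a9 at 0.0168. The caudal Cxcl2 difference changed with the day (F-test, adjusted p = 8.93e-06, beside 7.18% of genes), while no member's rostral difference did (0.215 to 0.342, beside 28.2%). Caudal Cxcl2 was at or below the 40th percentile in all 15 NT3 and all 15 LC arrays of days 10 to 90. A difference would be hard to measure on those days, so this test cannot tell a changing NT3 difference from low values. On days 1 and 3 RT1-CE10 was above 9 in 0 of 3 NT3 arrays of each group. It was above 9 in 3, 1, 3 and 2 of 3 LC arrays of rostral day 1, rostral day 3, caudal day 1 and caudal day 3, and its part in the early difference from LC was not tested.

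Related genes moved with the chemokines rostrally on these days. Of 7 CXC chemokines and receptors 4 were lower and none higher (median -0.77, against -0.04 for all genes), with Cxcl3 at -1.13 ± 0.21 (adjusted p = 7.18e-05, limma) and Cxcr2 at -0.78. Of 13 neutrophil genes 10 were lower (median -0.62), including Csf3r at -1.15, Mmp9 at -1.50 and Pglyrp1 at -1.03. Il6 was lower by -1.38 and Il1b by -1.10 (0.041), 2 of 6 lower genes among 11 inducing cytokines and feedback genes. The endothelial selectins, on which leukocytes roll, were lower too, Sele by -1.17 and Selp by -0.73. In caudal cord fewer passed: 2 of 7 CXC genes, with Cxcl3 at -0.71, 1 of 11 inducing genes, Il6 at -1.33 (3.19e-08), and 1 of 13 neutrophil genes lower with 1 higher. All genes called came to 19.2% lower rostrally, and to 3.75% lower and 2.82% higher caudally, so the caudal neutrophil count is near the share of all genes. None of the 5 erythrocyte genes was called in the rostral comparison, and 5 of 6 neuronal genes were higher with NT3.

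From day 10 on, no member was called between NT3 and LC outside the lesion site. The share of all genes called there was 0.407% in rostral cord on days 10 to 30, 0.0581% on days 60 to 90, 2.47% in caudal cord on days 10 to 30 and 0.141% on days 60 to 90. Cxcl2 was at or below the 40th percentile in all 9 rostral and all 9 caudal NT3 arrays of days 10 to 30. S100a8 ran between 7.43 and 12.65 in rostral NT3 arrays of those days, with replicate 3 of day 20 at the top. Its NT3 minus LC difference was 0.70 (adjusted p = 0.742, limma) with that array and 0.26 (0.953) without it. For S100a9 the 2 values were 0.72 (0.73) and 0.30 (0.94). In caudal cord the same differences were 0.77 (0.323) for S100a8 and 0.71 (0.352) for S100a9. On days 60 to 90 the caudal differences were 0.58 (0.686) for S100a8 and 0.79 (0.541) for S100a9. On day 90 S100a8 read 9.26, 8.09 and 7.74 in caudal NT3 arrays against 5.78, 7.58 and 6.08 in LC, and S100a9 read 10.34, 9.0 and 9.06 against 6.68, 8.47 and 6.87. All NT3 arrays of both alarmins were above all LC arrays on that day, a day with RT1-CE10 on different sides.

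The NT3 difference itself was compared between segments. On days 10 to 30 that of Cxcl2 was more negative at the lesion site than in neighbouring cord by -2.98 ± 0.34 (adjusted p = 2.74e-12, limma), beside 12.1% of genes called in that direction. In neighbouring LC cord Cxcl2 was already low on those days, with rostral and caudal means of 4.95 and 5.11. There it was at or below the 40th percentile in all 9 NT3 and all 9 LC arrays of each segment, a level at which a lower value with NT3 would be hard to measure. For Cxcl1 the same value was -0.78 ± 0.34 (adjusted p = 0.088), or -0.56 (0.252) without lesion site LC day 20 replicate 5, for S100a8 0.03 (0.98) and for S100a9 -0.23 (0.836). The Cxcl1 value passed without caudal LC day 10 replicate 3 (-0.88, adjusted p = 0.0434), caudal LC day 20 replicate 2 (-0.92, 0.0267) or lesion site LC day 20 replicate 3 (-0.92, 0.0423). No member passed on day 3 or days 60 to 90, beside 19.3% and 29%, or between rostral and caudal cord in any period, beside 0.83%, 1.1% and 0.0083%.

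**Figure D3:**
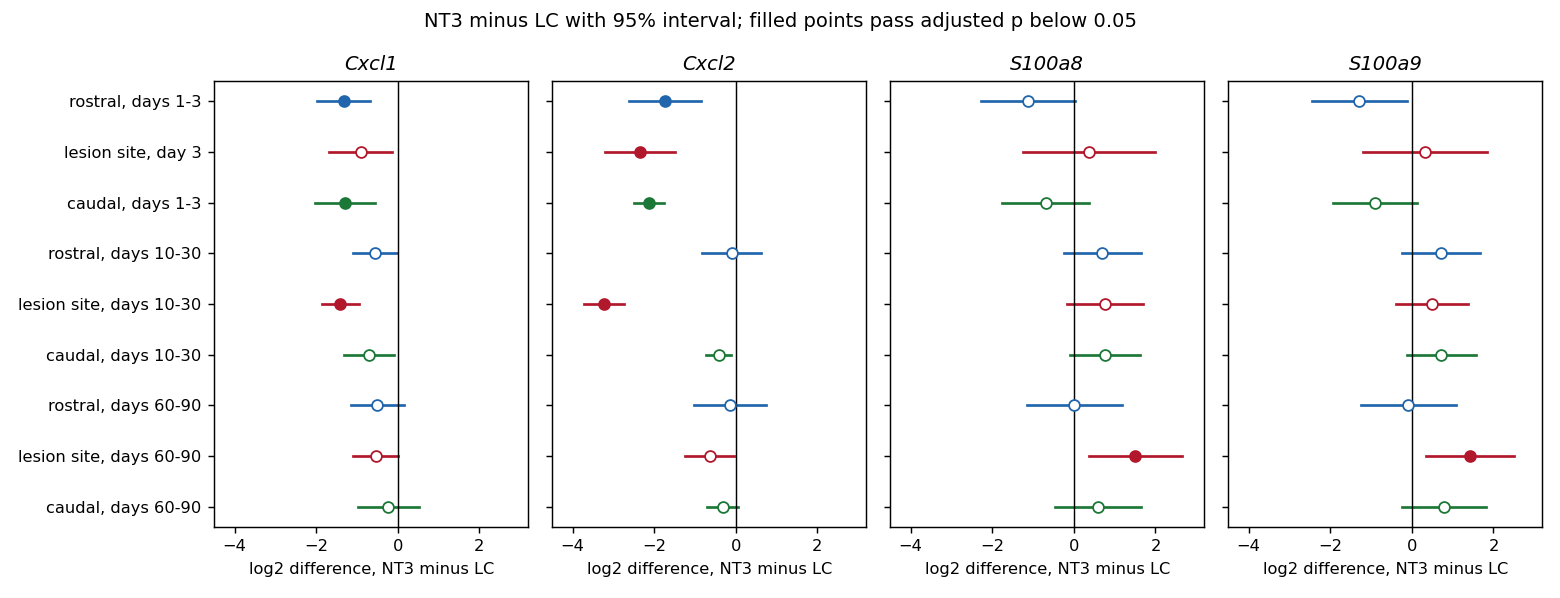
NT3 minus LC difference in log2 signal with its 95% interval, for each gene, segment and period, with filled points where the adjusted p is under 0.05. Cxcl2 at the lesion site on days 10 to 30 lies furthest below 0 (-3.24), and S100a8 and S100a9 at the lesion site lie above 0.

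Early chemokine values in rostral cord were lower with NT3 than with the empty tube. Rostral ET arrays read 11.09, 10.16 and 11.29 for Cxcl1 on day 1 and 8.56, 11.58 and 9.35 on day 3, and 9.42, 10.01 and 10.27 and then 5.93, 12.05 and 7.87 for Cxcl2. The second array of day 3 was far above the other 2 in both. NT3 was lower than ET by -1.21 ± 0.32 for Cxcl1 (means 9.13 and 10.34, adjusted p = 0.00777, limma) and by -1.72 ± 0.44 for Cxcl2 (7.54 and 9.26, 0.00531), beside 6.14% of genes. Without rostral ET day 3 replicate 2 the differences were -0.78 (adjusted p = 0.0702) and -0.86 (0.0345). A fit of the compared groups alone called no member over days 1 and 3. On day 3 alone, when RT1-CE10 was below 9 in every NT3 and ET array, the differences were -2.02 (0.00834) and -2.78 (0.007). These day 3 values include ET replicate 2, and the NT3 and ET arrays of Cxcl2 overlapped on that day. S100a8 and S100a9 differed by -1.04 (0.221) and -1.43 (0.0799) over both days, and S100a9 passed without ET day 3 replicate 1 (-1.71, 0.045). ET itself differed from LC by -0.10 for Cxcl1 (95% interval -0.75 to 0.54), -0.01 for Cxcl2 (-0.89 to 0.86), -0.08 for S100a8 (-1.23 to 1.08) and 0.15 for S100a9 (-1.01 to 1.30), none called, beside 4.19%. These averages join days of opposite sign. On day 1 ET minus LC ran between -1.40 and -0.55 over the members, with all ET arrays below all LC arrays for Cxcl2 and S100a8. On day 3 it ran between 0.34 and 1.38, with arrays overlapping. Without ET day 3 replicate 2 the chemokine differences from LC over both days were -0.54 (adjusted p = 0.278) and -0.87 (0.0609).

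In caudal cord Cxcl2 with ET had a mean between those of NT3 and LC over days 1 and 3. It read 8.77, 9.72 and 8.17 on day 1 and 7.06, 7.66 and 7.82 on day 3 with ET. NT3 was lower than ET by -1.21 ± 0.19 (means 6.99 and 8.20, adjusted p = 5.87e-05, limma), beside 4.51% of genes, and by -1.87 (1.67e-05) on day 3 alone. ET was lower than LC by -0.91 ± 0.19 (8.20 and 9.12, 0.0012), beside 16.1%. No other member passed in either comparison. Neighbouring treatments overlapped on day 1, and in a fit of the compared groups alone neither difference passed (adjusted p = 0.065 and 0.0553). ET minus LC did not pass without replicate 1 (-0.76, 0.0525) or replicate 3 (-0.63, 0.195), and on day 1 alone, with RT1-CE10 alike, it was -0.79 (0.0334). At the lesion site on day 3, ET arrays read 10.38, 10.61 and 10.43 for Cxcl2 and 10.33, 10.26 and 10.04 for Cxcl1. Cxcl2 with ET was lower than LC by -1.16 ± 0.42 (adjusted p = 0.0407), beside 15.8%, but not without ET replicate 1 (-1.12, 0.0966), 2 (-1.23, 0.0731) or 3 (-1.14, 0.0866) or LC replicate 1 (-1.01, 0.128) or 3 (-0.88, 0.191). Cxcl1 differed by -1.0 (0.0541). NT3 minus ET there called no member, beside 7.23%, with Cxcl2 at -1.19 (0.0754) or, without NT3 replicate 3, -1.83 (0.0106). The alarmins with ET read 10.86, 10.96 and 10.74 (S100a8) and 11.87, 11.93 and 11.74 (S100a9), within 0.42 of LC means. The 3 treatment comparisons share samples, so their calls are not separate evidence.

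The alarmins had a treatment difference in rostral cord late on. S100a8 read 9.06, 7.45 and 9.21 on day 60 and 8.49, 12.22 and 9.55 on day 90 with ET. It read 6.93, 7.35 and 7.71 and then 6.20, 6.27 and 6.14 with NT3, and 7.36, 7.07 and 6.87 and then 5.64, 6.88 and 6.70 in LC. On both days all ET arrays were above all LC arrays, and ET day 90 replicate 2 was far above the rest. ET was higher than LC by 2.58 ± 0.57 for S100a8 (means 9.33 and 6.75, adjusted p = 0.000587, limma) and by 2.49 ± 0.58 for S100a9 (10.23 and 7.74, 0.000857), beside 11% of genes called higher. NT3 was lower than ET by -2.56 ± 0.57 for S100a8 (6.77 and 9.33, 0.000631) and by -2.58 ± 0.58 for S100a9 (7.65 and 10.23, 0.000597), beside 12.7% called lower. Without ET day 90 replicate 2 these became 2.04 (0.00638) and 1.98 (0.00879) against LC, and -2.03 (0.00671) and -2.06 (0.00622) for NT3 against ET.

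S100a9 gave the same picture by array. It read 9.71, 8.36 and 10.28 on day 60 and 9.38, 13.07 and 10.58 on day 90 with ET. It read 7.88, 8.47 and 8.76 and then 7.31, 6.75 and 6.74 with NT3, and 8.31, 8.07 and 7.89 and then 6.48, 8.03 and 7.64 in LC. On day 90 no ET array met either of the other groups. RT1-CE10 was above 9 in 3 of 3 ET arrays on day 60 and 0 of 3 on day 90, in 0 of 3 NT3 arrays on both days, and in 0 of 3 LC arrays on day 60 and 3 of 3 on day 90. On day 90 alone, where NT3 and ET were on the same side, NT3 minus ET was -3.88 for S100a8 (adjusted p = 0.000584, limma) and -4.08 for S100a9 (0.000349). The chemokines did not pass in this period. Cxcl1 averaged 6.45 with NT3, 7.24 with ET and 6.95 in LC, and Cxcl2 4.53, 5.08 and 4.68. No member was called between NT3 and ET or between ET and LC rostrally on days 10 to 30 or caudally from day 10 on. All genes called came to 0.249% and 13.7% rostrally on days 10 to 30 for these 2 comparisons, to 0.183% and 0% caudally on days 10 to 30, and to 1.61% and 0.116% caudally on days 60 to 90.

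Neutrophil genes moved in part with the alarmins there. Of 13, 4 were higher in ET than in LC: Mmp9 by 1.47 (adjusted p = 0.0171, limma), Camp by 1.14 (0.0117), Pglyrp1 by 1.05 (0.03) and the haptoglobin gene Hp by 0.84 (0.0176), while Csf3r differed by -0.08. Of 5 erythrocyte genes 2 were higher (median 0.86), Ahsp by 1.37 (0.024) and Hemgn by 1.51 (0.0159), with Hbb at 0.22 (0.052). All 6 neuronal genes were lower in ET (median -0.65), and 3 of 6 muscle genes higher (median 1.39). The mean of the erythrocyte genes relative to uninjured cord ran between -0.54 and 1.12 in ET arrays of day 90 and between -1.10 and -0.64 in LC. In NT3 minus ET, 6 of 13 neutrophil genes and 3 of 5 erythrocyte genes were lower, beside 12.7% of all genes. All genes called came to 11% higher and 15.6% lower for ET against LC. The part of these other cells, and that of RT1-CE10 against LC, in the alarmin difference was not tested.

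**Figure D4:**
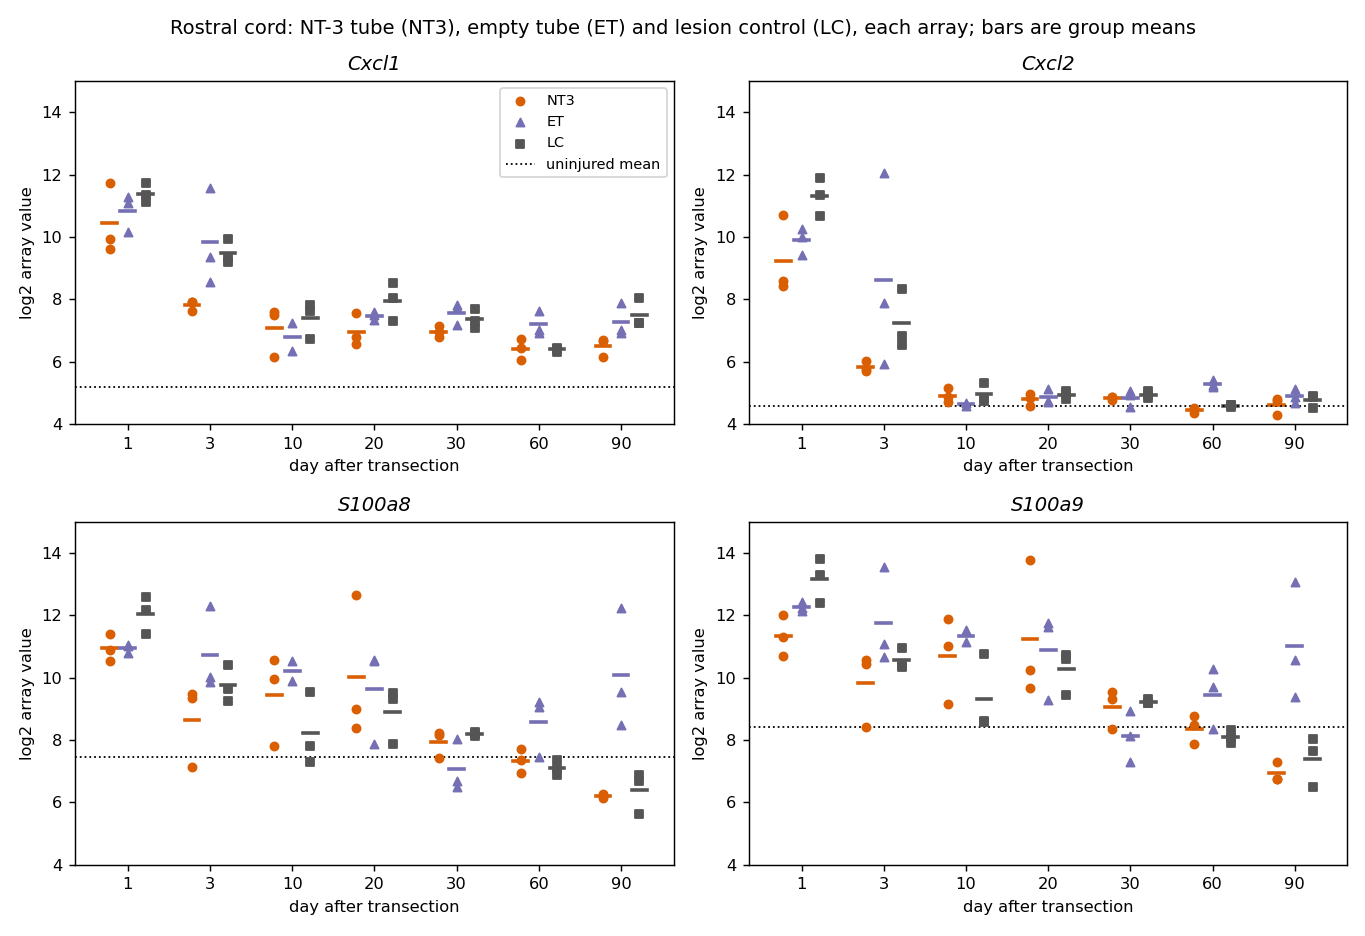
Rostral cord arrays with NT3, ET and LC, log2 signal against day, 1 point per array and 1 panel per gene. On days 60 and 90 the ET points of S100a8 and S100a9 lie above the LC points, and 1 ET array of day 90 stands far above the others.

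Most related genes were higher after the injury as well. In rostral LC cord on day 1, 5 of 7 CXC chemokines and receptors were higher than in uninjured cord and none lower (median 1.09, against 0.00 for all genes), with Cxcl3 at 3.79 ± 0.30 (adjusted p = 3.57e-15, limma) and Cxcr2 at 2.26 ± 0.20, while Ppbp differed by 0.35 (0.414). Of 7 receptors and partners of S100A8/A9 6 were higher (median 2.35), Cd14 by 4.45 and Tlr4 by 1.88, while Ager differed by -0.16 (0.189). Of 11 inducing cytokines and feedback genes 9 were higher (median 2.61), Il6 by 6.59 ± 0.36 (1.34e-20) and Il1b by 4.46 ± 0.60 (1.18e-08), but Tnf by only 0.01 (0.961). Of 13 neutrophil genes 12 were higher (median 2.56), among them Csf3r by 3.22, Mmp8 by 3.06, Mmp9 by 4.21, Lcn2 by 5.65 and Pglyrp1 by 2.81, with Camp at 0.49 (0.396). Sele rose by 1.52, Selp by 1.28 and Icam1, a leukocyte adhesion ligand, by 2.02, within 5 of 6 adhesion genes higher, where 31.5% of all genes were higher and 31.1% lower. Of 9 other S100 genes 5 were higher and 3 lower, S100a6 by 2.88 and the glial S100b by -0.26 (0.000196). None of the 5 erythrocyte genes was called, and all 6 neuronal genes were lower.

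At the lesion site the counts were alike later on. On days 10 to 30, 12 of 13 neutrophil genes (median 2.92, against 0.07 for all genes), 11 of 11 inducing genes (median 2.31), 6 of 7 CXC genes and 6 of 7 S100A8/A9 receptors and partners were higher in LC than in uninjured cord. Of all genes, 41.9% were called higher there. Cxcl6 was higher by 3.52 ± 0.22, Cxcl3 by 1.52 ± 0.30, Cxcr2 by 1.01 and Ppbp by 0.74 (adjusted p = 0.00675, limma). None of the 5 erythrocyte genes was called in that comparison, though 4 of 5 were on day 3 (median 2.39), when 40.8% of all genes were called higher. From days 10 to 30 to days 60 to 90, 11 of 13 neutrophil genes fell (median -1.08), beside 21.7% of all genes called lower. Genes of granulocyte precursors could not be followed, since none of the 2 on the array passed the filter on low values.

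The 2 alarmins tracked each other closely and the 2 chemokines less so. Over the 56 group means S100a8 and S100a9 correlated at r = 0.992, and over the deviations of all arrays from their group means at 0.983. Cxcl1 and Cxcl2 correlated at 0.912 and 0.553 on the same points, and a chemokine with an alarmin at between 0.643 and 0.73 and between 0.246 and 0.359. Values of a pair come from the same arrays and share their quality and tissue content. The median SD within a group was 0.394 for Cxcl1, 0.248 for Cxcl2, 0.673 for S100a8 and 0.718 for S100a9. The largest was 3.127, for Cxcl2 in rostral ET on day 3, where Cxcl1 also had its largest, 1.563. S100a8 and S100a9 had theirs, 2.303 and 2.213, in rostral NT3 on day 20, where replicate 3 read 12.65 and 13.76.

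**Figure D5:**
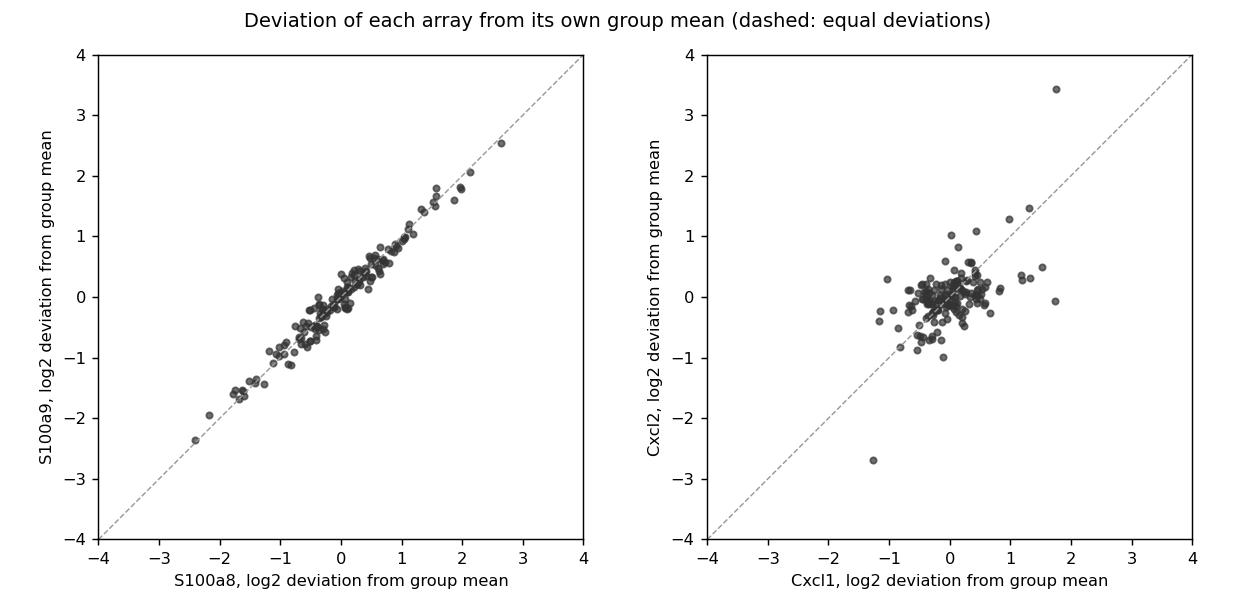
Deviation of each array from its group mean, S100a9 against S100a8 in 1 panel and Cxcl2 against Cxcl1 in the other, in log2 units. The alarmin points lie along a line (r = 0.983) and the chemokine points scatter more (r = 0.553).

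Ordered by group mean, most neighbouring groups overlapped. Cxcl1 was highest in rostral LC on day 1 (11.39), the lesion site in LC on day 3 (11.21) and the lesion site in LC on day 20 (11.08). Cxcl2 was highest at the lesion site in LC on day 3 (11.64), in rostral LC on day 1 (11.30) and at the lesion site with ET on day 3 (10.47). S100a8 and S100a9 were both highest in rostral LC on day 1 (12.06 and 13.18) and next at the lesion site with NT3 on day 20 (11.62 and 12.68). Their lowest group was rostral NT3 on day 90, with means of 6.20 and 6.94. Uninjured cord ranked 56 of 56 for Cxcl1, 51 for Cxcl2 and 48 for each alarmin. Neighbours in these orders overlapped in 54 of 55 pairs for Cxcl1, 52 for Cxcl2 and 55 for each alarmin, so most single steps in the order are within the spread of arrays. The exceptions were a step of 1.078 for Cxcl1 down to uninjured cord, and steps of 0.831, 0.572 and 1.29 for Cxcl2. The step of 1.29 lay between rostral LC on day 3 (7.24) and lesion site LC on day 60 (5.95).

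The genes with group means most like each member were looked up among all those tested. For Cxcl1 they were the monocyte chemokines Ccl2 (r = 0.958) and Ccl7 (0.95), the protease inhibitor Slpi (0.948), the prostaglandin E synthase Ptges (0.944) and the transcription factor Myc (0.94). For Cxcl2 they were Cxcl3 (0.961), Il6 (0.957), the transglutaminase Tgm1 (0.949), the phosphatase Dusp5 (0.944) and the natriuretic peptide gene Nppb (0.941). For S100a8 they were S100a9 (0.992), Pglyrp1 (0.9), Lrg1 (0.836), the erythroid and megakaryocyte transcription factor Nfe2 (0.832) and Slpi (0.823). For S100a9 the same 5 places held S100a8, Pglyrp1 (0.905), Nfe2 (0.848), Lrg1 (0.824) and Slpi (0.814). These are correlations over 56 group means and describe likeness of pattern alone.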

How the data were processed

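All 167 arrays were used. The submitters' processing notes name GCOS, RMA and Affymetrix Expression Console. The log2 values deposited by the authors cover 31099 probe sets and were taken without change. Which arrays were normalised together is not given in the sources used here. Of the probe sets 20832 had 1 gene symbol, 436 several and 9831 none. Each of 14218 genes was read from its probe set of highest mean, and 12041 genes above the 40th percentile of their array in at least 3 arrays were tested.

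A model of group means was fitted in R 4.3.3 by limma 3.58.1 (lmFit and eBayes), 1 fit per segment with the uninjured cords, and 1 fit of all arrays to compare segments. P-values were adjusted by Benjamini-Hochberg over all genes tested, with a threshold of 0.05, and the fit was tested on simulated data. SE and 95% intervals are limma's. List counts leave out the members. Named genes were the 4 members, a fixed set of list genes, cell type markers, and the 5 genes most like each member. Members and lists were chosen with earlier results of these data known. Tables and figures were made with Python 3.11.15, pandas 2.3.3, numpy 2.4.6 and matplotlib 3.10.9, and promoter sequences were read from RefSeq's GRCr8 table. Alternatives covered filters, scaling, the choice of arrays, array weights, the replicate number as a block and days with RT1-CE10 alike. Leaving out rostral ET day 90 replicate 2, lesion site NT3 day 60 replicate 2 or rostral NT3 day 20 replicate 3 was chosen after seeing the data.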

Additional observations from a re-analysis of the deposited data

Results flagged for a closer look

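The NT3 minus LC difference of Cxcl2 on days 10 to 30 was picked out because it differed between segments in a test of that difference. This difference was more negative at the lesion site than in the mean of rostral and caudal cord by -2.98 ± 0.34 (adjusted p = 2.74e-12, limma). The lesion site had no ET arrays on these days, so NT3 and the tube itself cannot be told apart there. Over the alternatives the value of -2.98 ran between -3.34 and -2.52, with -2.52 on the days with RT1-CE10 alike. In rostral and caudal cord Cxcl2 was at or below the 40th percentile in all 9 NT3 and all 9 LC arrays of each segment, a level at which a lower value with NT3 would be hard to measure.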

How the results depend on the processing

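The counts of members called did not move by over 1.5 times in any of 52 comparisons with a trended and robust prior, with probe sets averaged per gene, or with the low-value filter removed or raised to the 60th percentile. In a fit of the compared groups alone, which uses fewer arrays, the count became, with the count as reported in brackets, 2 for LC against uninjured cord rostrally on days 10 to 30 (1), 4 for LC day 3 against day 1 caudally (1), 1 for LC days 10 to 30 against day 3 at the lesion site (2), 0 for NT3 against LC at the lesion site on day 3 (1), 4 for NT3 against LC caudally on days 1 to 3 (2), 0 for NT3 against ET rostrally on days 1 to 3 (2), 4 for NT3 against ET rostrally on days 60 to 90 (2), 0 and 1 for NT3 against ET caudally on days 1 to 3 (1) and 60 to 90 (0), 2 for ET against LC at the lesion site on day 3 (1), 0 for ET against LC caudally on days 1 to 3 (1), and 1 for the NT3 difference at the lesion site against its neighbours on days 60 to 90 (0). With array weights it became 2 for LC against uninjured cord rostrally on day 3 (4), 3 for the same on days 60 to 90 (1), 4 for LC day 3 against day 1 caudally, 1 for NT3 against LC rostrally on days 10 to 30 and caudally on days 10 to 30 and 60 to 90 (0 each), 2 and 1 for NT3 against ET caudally on days 1 to 3 and 60 to 90, and 2 for ET against LC at the lesion site on day 3. One fit of all arrays gave 0 for LC day 3 against day 1 caudally. ET against LC at the lesion site on day 3 gave 0 with quantile normalization, 0 with 75th percentile scaling, 0 in one fit of all arrays and 2 without 3 arrays that earlier work on these data had set apart (lesion site LC day 20 replicate 5, lesion site NT3 day 3 replicate 1, uninjured replicate 2). Without those 3 arrays LC against uninjured cord gave 2 rostrally on day 3 and 1 caudally on days 10 to 30 (3), where a beta-actin covariate also gave 1. On days with RT1-CE10 alike NT3 against LC at the lesion site on days 60 to 90 gave 0 (2). Replicate numbers were not used to pair samples in the main fits. Deviations of same-numbered arrays correlated above 0.1 in 20 of 59 NT3 and LC pairs, 19 of 44 NT3 and ET pairs, 15 of 44 ET and LC pairs, 13 of 59 LC and uninjured pairs, 18 of 38 lesion site and rostral pairs and 32 of 62 rostral and caudal pairs (median 0.11). Arrays of different numbers were not compared in this way, so the check cannot exclude pairing. Segments of 1 number may share an animal, and the fit of all arrays took them as separate. With the replicate number as a block, the count became 2 for NT3 against LC and 2 for ET against LC at the lesion site on day 3, and no other count moved by over 1.5 times. Leaving out 1 array or 1 replicate number at a time, the counts ran between 2 and 4 for LC against uninjured cord rostrally on day 3, 1 and 4 for LC day 3 against day 1 rostrally and 0 and 1 caudally, 1 and 2 for LC days 10 to 30 against day 3 at the lesion site, and 0 and 2, 2 and 4 and 0 and 4 for LC days 60 to 90 against days 10 to 30 in rostral cord, the lesion site and caudal cord. For LC against uninjured cord caudally they ran between 1 and 4 on days 10 to 30 and between 0 and 1 on days 60 to 90, and for the lesion site against its neighbours on days 60 to 90 between 2 and 4. For NT3 against LC they ran between 0 and 2 rostrally and 1 and 2 caudally on days 1 to 3, and at the lesion site between 1 and 2 on day 3 and 0 and 2 on days 60 to 90. For NT3 against ET they ran between 0 and 3 rostrally on days 1 to 3 and 0 and 1 at the lesion site on day 3, for ET against LC between 0 and 1 caudally on days 1 to 3 and 0 and 2 at the lesion site on day 3, and for the NT3 difference at the lesion site against its neighbours on days 10 to 30 between 1 and 2. The causes were not tested. Of single values, NT3 minus ET of Cxcl2 rostrally on days 1 to 3 was -2.87 without replicate 1, and LC minus uninjured cord of S100a9 caudally on days 10 to 30 was 0.93 with array weights.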
